A study of Mus musculus with 6 samples.

Results

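The genes of adult hemoglobin were followed through RNA-seq libraries of the mouse arcuate nucleus (ARC), together with *Alas2*, the red cell enzyme for the first step of heme synthesis. The set was defined by symbol: *Hba-a1* and *Hba-a2* encode the alpha chain of adult hemoglobin and *Hbb-bs* and *Hbb-bt* its beta chain. The rule itself uses no measured value. These are 5 of the 22322 genes in the deposited table, and all 5 had a row and passed the filter on low counts, as did 14188 genes in all. The study compared normal-chow diet (NCD, 16.5% fat) with high-fat diet (HFD, 60% fat) in male mice put on the diets at 4 weeks of age for 16 weeks. The ARC was excised from frozen sections by laser capture microdissection (LCM), with 3 libraries per diet, named NCD1 to NCD3 and HFD1 to HFD3. According to the methods, brains were rinsed in cold PBS to clear blood from their surface, and the description of the LCM names no perfusion. The study's stock mice were C57BL/6J, and Kiss1-Cre mice crossed with the R26R-EYFP reporter served to locate Kiss1 neurons. Whether the sequenced mice carried these alleles, and whether a library came from a single mouse, is not stated in the sources used here. The p-values below therefore measure the spread between these libraries, which may be technical.

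Hemoglobin fills red blood cells and is a tetramer of alpha and beta chains, each holding a heme group with an iron atom that binds oxygen. Mature mammalian red cells have no nucleus and make no new RNA, but young red cells (reticulocytes) still carry globin mRNA in large amounts, so globin transcripts in brain tissue are commonly used as a sign of blood left in its vessels. Low expression of alpha and beta globin has also been described in neurons and glia. In such bulk samples, fewer cells of a type and less RNA per cell cannot be told apart.

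The alpha and beta genes are each a pair of near-identical copies, which bears on how reads were divided between them. *Hba-a1* (chr11:32283511-32284465, plus strand, GRCm38) and *Hba-a2* (chr11:32296489-32297298, plus strand) lie 12023 bases apart. *Hbb-bt* (chr7:103812524-103813996, minus strand) and *Hbb-bs* (chr7:103826534-103828096, minus strand) lie 12537 bases apart, and *Alas2* lies on the X chromosome (chrX:150547375-150570638, plus strand). In the GENCODE M21 transcripts, the coding sequences of *Hba-a1* and *Hba-a2* differed at 1 of 426 bases (C381T, from *Hba-a1* to *Hba-a2*), and those of *Hbb-bs* and *Hbb-bt* at 1 of 441 bases (C417T, from *Hbb-bs* to *Hbb-bt*), counted from 1 at the A of the start codon and without the stop codon. The stretches around these bases are shown because no other coding base tells the copies apart, with the differing base in capitals.
Hba-a1, coding bases 351 to 411: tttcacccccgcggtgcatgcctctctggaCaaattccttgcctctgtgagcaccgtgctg
Hba-a2, coding bases 351 to 411: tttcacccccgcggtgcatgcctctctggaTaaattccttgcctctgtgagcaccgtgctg
Hbb-bs, coding bases 387 to 441: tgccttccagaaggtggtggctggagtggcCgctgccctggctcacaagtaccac
Hbb-bt, coding bases 387 to 441: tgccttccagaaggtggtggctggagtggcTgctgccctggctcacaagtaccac

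Of all stretches of 100 bases in the *Hba-a1* transcript, 56.5% occurred unchanged in *Hba-a2*, and 74.5% of those of *Hba-a2* occurred in *Hba-a1*. For *Hbb-bs* and *Hbb-bt* these shares were 62.6% and 54.8%. Reads from such stretches fit both copies, and values for a single copy depend on how the quantification divided them (the methods name StringTie and RSEM without saying which made the counts). Alpha and beta coding sequences were far apart, with 57.5% identity between *Hba-a1* and *Hbb-bs*, and 0 stretches of 100 bases were shared between an alpha and a beta transcript.

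Promoter sequence from RefSeq (GRCm38.p6) is shown for 4 of the genes as a description. Whether it bears on the differences between libraries was not tested. The bases are those before the RefSeq start that lie outside every GENCODE exon of the gene. Capitals mark matches on either strand to GATAA (the core that GATA1 recognizes, TTATC from the other strand), CACCC (the box bound by KLF1, read as GGGTG from the other strand), CCAAT (or ATTGG) and TATAA (or TTATA). The TATAA matches of *Alas2* on its 2 strands overlap.
Hba-a2, chr11:32296242-32296488, plus strand: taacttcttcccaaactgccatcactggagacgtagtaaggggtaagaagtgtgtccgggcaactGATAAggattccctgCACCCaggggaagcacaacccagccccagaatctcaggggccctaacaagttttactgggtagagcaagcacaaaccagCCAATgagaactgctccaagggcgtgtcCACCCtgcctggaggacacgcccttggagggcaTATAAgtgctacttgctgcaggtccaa
Hbb-bs, chr7:103828097-103828178, minus strand: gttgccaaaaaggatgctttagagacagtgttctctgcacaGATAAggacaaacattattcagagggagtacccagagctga
Hbb-bt, chr7:103813997-103814173, minus strand: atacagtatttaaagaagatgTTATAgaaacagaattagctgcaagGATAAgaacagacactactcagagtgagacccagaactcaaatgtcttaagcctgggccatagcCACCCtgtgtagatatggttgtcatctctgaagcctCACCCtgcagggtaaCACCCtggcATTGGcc
Alas2, chrX:150547167-150547374, plus strand: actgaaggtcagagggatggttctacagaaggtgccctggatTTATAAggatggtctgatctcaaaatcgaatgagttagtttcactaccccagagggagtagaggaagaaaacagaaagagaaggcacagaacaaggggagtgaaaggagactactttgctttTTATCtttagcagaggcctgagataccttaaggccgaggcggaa

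Over the whole 250 bases before the start, each of the 4 globin genes held all 4 motifs, which 0.968% of 32851 mouse promoters of the same length did. The single motifs were found in 22.6% (GATAA), 52.0% (CACCC), 33.8% (CCAAT) and 22.8% (TATAA) of those promoters. *Alas2* held 3 of the 4 and had no CCAAT in this window. Between *Hba-a1* and *Hba-a2*, 247 of the 250 promoter bases aligned without a differing base, whereas *Hbb-bs* and *Hbb-bt* were 69.3% identical there. A motif match describes the letters only and is not evidence that a factor binds.

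The libraries held from 5171381 counts (HFD3) to 15925648 counts (NCD1), with 9937632 in NCD2, 6882449 in NCD3, 8024664 in HFD1 and 10479778 in HFD2. Levels are given as CPM (counts per 1e+06 counts of the library, scaled with TMM factors between 0.967 and 1.04). A floor of 3 counts equals 0.188 CPM in NCD1 and 0.580 CPM in HFD3. Of the 15 ARC neuron markers listed, 14 had counts in every library, among them *Pomc*, the precursor of the satiety peptide alpha-MSH, with a mean of 671.7 CPM. *Kiss1* was the exception, with 0 counts in NCD1 and HFD1. Its locus lies within that of *Gm28040* on the same strand in the annotation (GENCODE), and *Gm28040* (ENSMUSG00000115958) had 70 and 99 counts in NCD1 and HFD1 against 15 to 39 in the other libraries. The zeros of *Kiss1* therefore do not show that its transcript was absent.

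All 4 adult globin genes were detected in every library at high levels, and they differed more between libraries of the same diet than between the diets. None of the 5 genes passed the test for a diet difference at an adjusted p under 0.05, although each had a fitted log2 fold change below 0. The 4 globins together took 0.0812% of all counts for NCD1 (12927 counts, 95% Wilson interval 0.0798 to 0.0826%), 0.245% for NCD2 (24358 counts, 0.242 to 0.248%) and 0.190% for NCD3 (13044 counts, 0.186 to 0.193%). On HFD the share was 0.169% for HFD1 (13526 counts, 0.166 to 0.171%), 0.112% for HFD2 (11692 counts, 0.110 to 0.114%) and 0.0843% for HFD3 (4358 counts, 0.0818 to 0.0868%). The intervals hold counting error alone. They may be too narrow even for that, because reads that carry no molecular identifier may be copies of 1 molecule. NCD2 was the highest and NCD1 the lowest of the 6, so the NCD libraries spanned the whole range and contained every HFD value.

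In CPM, the summed adult globins stood at 777 in NCD1, 2477 in NCD2, 1960 in NCD3, 1679 in HFD1, 1152 in HFD2 and 819 in HFD3. NCD averaged 1738 ± 871 and HFD 1216 ± 434 (SD, n = 3). The highest library was 3.19 times the lowest over all 6 and within NCD alone, and 2.05 times within HFD. The mean difference on the log2 scale was -0.42 (HFD minus NCD), against an SD of 0.72 within diets. No library stood apart, since the values were spread over the range, and the order did not follow library size. The Pearson correlation between the log2 globin sum and the log2 total count was -0.14 (n = 6, a description only).

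**Figure D1:**
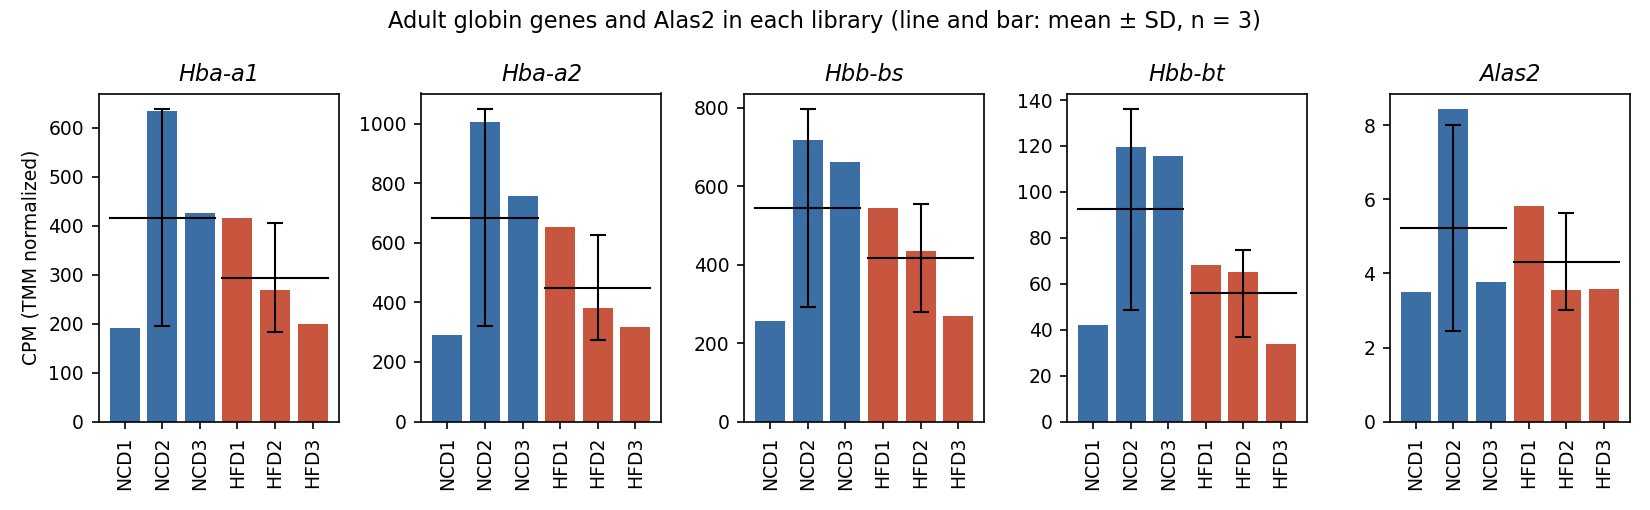
CPM (TMM normalized) of each of the 5 genes in the 6 libraries, with NCD in blue and HFD in red, the horizontal line at the mean of each diet and the error bar its SD (n = 3). NCD2 is the highest bar in every panel, NCD1 lies near the lowest, and the bars of the diets overlap.

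Among the alpha genes, *Hba-a2* was the more abundant. Its level was 289.9, 1007 and 759 CPM for NCD1 to NCD3 and 652, 383 and 316 CPM for HFD1 to HFD3. The diets overlapped, with NCD1 below every HFD library and NCD2 and NCD3 above all of them. The log2 fold change was -0.61 ± 0.40 (SE) in edgeR's quasi-likelihood test (p = 0.151, adjusted p = 0.999), and an exact permutation test of the CPM gave p = 0.4. *Hba-a1* followed the same order at a lower level, with 190.5 CPM in NCD1, 634 in NCD2, 425 in NCD3, 415 in HFD1, 268 in HFD2 and 199 in HFD3. Its log2 fold change was -0.50 ± 0.38 (edgeR, p = 0.214, adjusted p = 0.999; exact permutation p = 0.5). Here, too, NCD1 was the lowest library and NCD2 the highest.

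*Hbb-bs*, the main source of beta chain counts, had 255 CPM in NCD1, 717 in NCD2, 661 in NCD3, 544 in HFD1, 436 in HFD2 and 269.6 in HFD3. NCD1 lay below HFD3, and the other NCD libraries lay above all HFD libraries. The log2 fold change was -0.39 ± 0.36 (edgeR, p = 0.307, adjusted p = 0.999; exact permutation p = 0.6). *Hbb-bt*, the minor beta gene, had 42.0 CPM in NCD1, 119 in NCD2, 116 in NCD3, 68.3 in HFD1, 65.3 in HFD2 and 33.8 in HFD3. In contrast to the other globins, its lowest library was HFD3, with NCD1 next to it. Its fitted difference was the largest of the 5 genes, at -0.72 ± 0.36 (edgeR, p = 0.0715, adjusted p = 0.999; exact permutation p = 0.3).

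*Alas2* was far lower, with 58, 83 and 25 counts in NCD1 to NCD3 and 47, 36 and 19 counts in HFD1 to HFD3. These equal 3.49, 8.44 and 3.76 CPM in NCD and 5.84, 3.55 and 3.57 CPM in HFD. NCD2 was the highest and HFD1 the next, while the other 4 libraries lay between 3.49 and 3.76 CPM. The log2 fold change was -0.27 ± 0.43 (edgeR, p = 0.543, adjusted p = 0.999; exact permutation p = 0.7).

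With edgeR, 0 of the 5 genes passed at an adjusted p under 0.05, which 0.0564% of the 14188 genes tested did, and 0 of 5 had an unadjusted p under 0.05, which 2.30% did. At the study's own threshold (p under 0.05 and a fold change above 1.5), 0 of 5 passed with edgeR, against 1.90% of all genes. With DESeq2, which the study used, *Hbb-bt* alone of the 5 passed that threshold (log2 fold change -0.73), among 300 genes in all. The diets did not separate for any of the 5, whereas they did so for 6.48% of all genes tested. The median log2 fold change of the 5 genes was -0.50, beside 0.0032 over all genes tested, and 49.5% of all genes had a value below 0. The 5 genes rise and fall with each other, so their shared sign is not 5 separate observations. DESeq2 gave 0 of 5 at an adjusted p under 0.05 and 1 at an unadjusted p under 0.05, which was *Hbb-bt*, against 0.105% and 1.93% of the 18169 genes it tested. With 3 libraries against 3, the exact permutation test cannot give a p below 0.1.

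The size of the fitted differences depended on single libraries of both diets. Without NCD1 the fitted log2 fold changes were -0.86 for *Hba-a1*, -0.98 for *Hba-a2*, -0.74 for *Hbb-bs* and -1.08 for *Hbb-bt*. All 4 then had an unadjusted p under 0.05 in edgeR, from 0.00211 for *Hbb-bt* to 0.0212 for *Hbb-bs*, and none passed after adjustment. In that fit, 1.90% of 14261 genes had a p under 0.05. Without NCD2 the values were -0.06, -0.22, -0.14 and -0.49, and that of *Alas2* turned to 0.26. Without NCD3, that of *Hbb-bs* was -0.22 and that of *Alas2* -0.44. Leaving out HFD1, the HFD library with the most globin, gave -0.83, -0.97, -0.62 and -0.89. In that fit, *Hba-a2* alone of the 5 genes had an unadjusted p under 0.05 in edgeR, at 0.0450, which 1.36% of 14518 genes did, and none passed after adjustment. *Alas2* stood at -0.55. Leaving out HFD3, the HFD library with the least, gave -0.29, -0.41, -0.16 and -0.47, and -0.16 for *Alas2*. Without HFD2 the globin values lay between -0.85 and -0.42, and that of *Alas2* was -0.14. The sign of the globin values was the same in each of the 6 fits that left out a library.

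**Figure D2:**
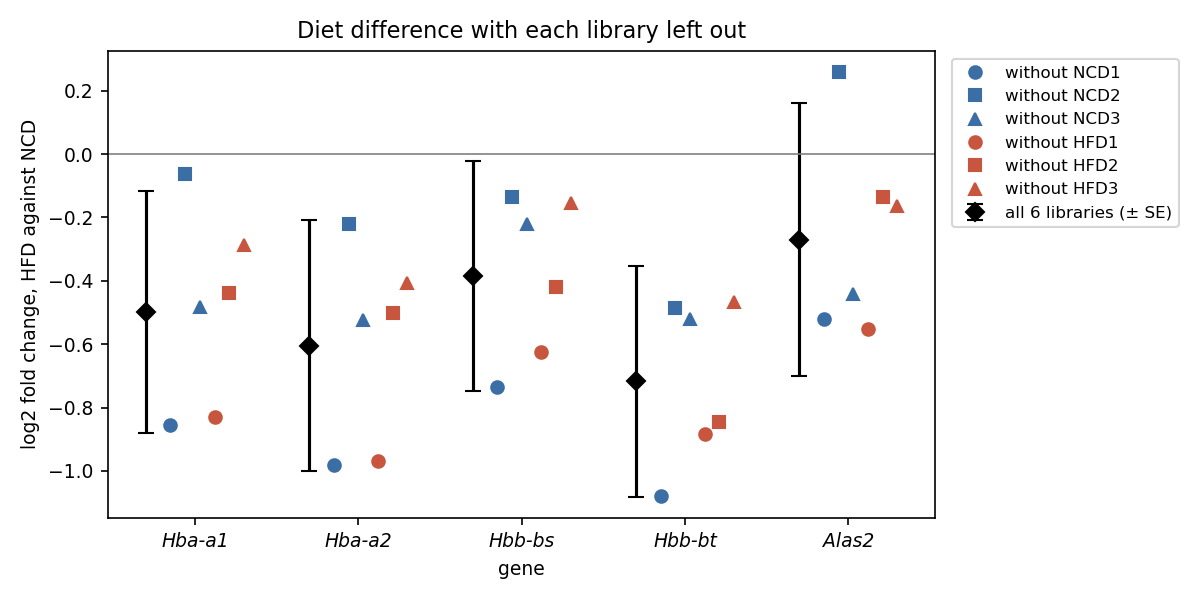
Fitted log2 fold change (HFD against NCD, edgeR) of each gene with all 6 libraries (black, ± SE) and with each library left out in turn (coloured symbols). The lowest globin values are those without NCD1 (-1.08 for *Hbb-bt*), and *Alas2* without NCD2 is the only point above 0, at 0.26.

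Within diets, the globin genes were among the more variable genes. The SD of log2 CPM within diets was 0.73 for *Hba-a1*, 0.77 for *Hba-a2*, 0.69 for *Hbb-bs* and 0.72 for *Hbb-bt*, against a median of 0.31 over all genes tested. These values exceeded those of 92.8 to 95.02% of the genes tested. *Alas2*, with an SD of 0.56, lay above 85.9% of them.

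The globins varied together from library to library. Across the 6 libraries, the Pearson correlation of log2 CPM was 0.99 between the alpha copies and 0.96 between the beta copies. Between alpha and beta genes it ranged from 0.92 to 0.96. Copies of a chain can share reads, whereas alpha and beta transcripts held no common stretch of 50 bases. All points share library and normalization. *Alas2* followed the globins less closely, with 0.84 against *Hba-a1*, 0.79 against *Hba-a2*, 0.67 against *Hbb-bs* and 0.59 against *Hbb-bt*. There were 223 globin counts for each *Alas2* count in NCD1, 293 in NCD2, 522 in NCD3, 288 in HFD1, 325 in HFD2 and 229 in HFD3.

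To compare the genes with each other, FPKM (fragments per kilobase of transcript and sequencing depth, as deposited) was used, since it accounts for transcript length. *Hba-a2* stood at 1798 FPKM in NCD2, where 20 genes of the table were higher, and at 546 FPKM in NCD1. *Hbb-bs* ranged from 424 FPKM in NCD1 to 1130 in NCD2, *Hba-a1* from 285 in NCD1 to 897 in NCD2, and *Hbb-bt* from 49.4 in HFD3 to 168 in NCD2. *Alas2* remained between 1.76 and 4.13 FPKM. The order *Hba-a2*, *Hbb-bs*, *Hba-a1*, *Hbb-bt* held in 5 of the 6 libraries. It depends on the transcript lengths behind the FPKM, which for *Hba-a1* was 699 bases. The GENCODE start of *Hba-a1* lies 161 bases before its RefSeq start, and the order with a shorter transcript was not tested. In HFD2, *Hbb-bs* (672 FPKM) and *Hba-a2* (669 FPKM) were level.

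The ratio of alpha to beta FPKM, each summed over its copies, was 1.71, 2.08 and 1.63 for NCD1 to NCD3 and 1.84, 1.37 and 1.79 for HFD1 to HFD3. The means were 1.80 ± 0.24 in NCD and 1.67 ± 0.26 in HFD (SD, n = 3), which differed by less than the spread within a diet. Thus, while the globin sum moved over 3.19-fold, the ratio of the chains moved over 1.52-fold.

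The split between the beta copies did not overlap between the diets, whereas the levels did. *Hbb-bt* made up 14.1% of the beta counts for NCD1 (Wilson 95% interval 13.2 to 15.1%), 14.3% for NCD2 (13.5 to 15.04%) and 14.9% for NCD3 (14.0 to 15.9%). Under HFD it made up 11.2% for HFD1 (10.3 to 12.1%), 13.0% for HFD2 (12.1 to 14.0%) and 11.1% for HFD3 (9.70 to 12.8%). Each NCD share lay above each HFD share, with means of 14.4 ± 0.41% and 11.8 ± 1.09% (SD, n = 3). The counting interval of HFD2 overlapped those of all 3 NCD libraries. This ratio was not tested, and it rests on the division of shared reads between the copies. For comparison, the levels of 6.48% of all genes tested did not overlap between the diets. The alpha to beta ratio and the globin counts per *Alas2* count did overlap. Between the alpha copies there was no such separation. *Hba-a1* made up 39.7, 38.6 and 35.9% of the alpha counts in NCD1 to NCD3, and 38.9, 41.2 and 38.7% in HFD1 to HFD3.

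**Figure D3:**
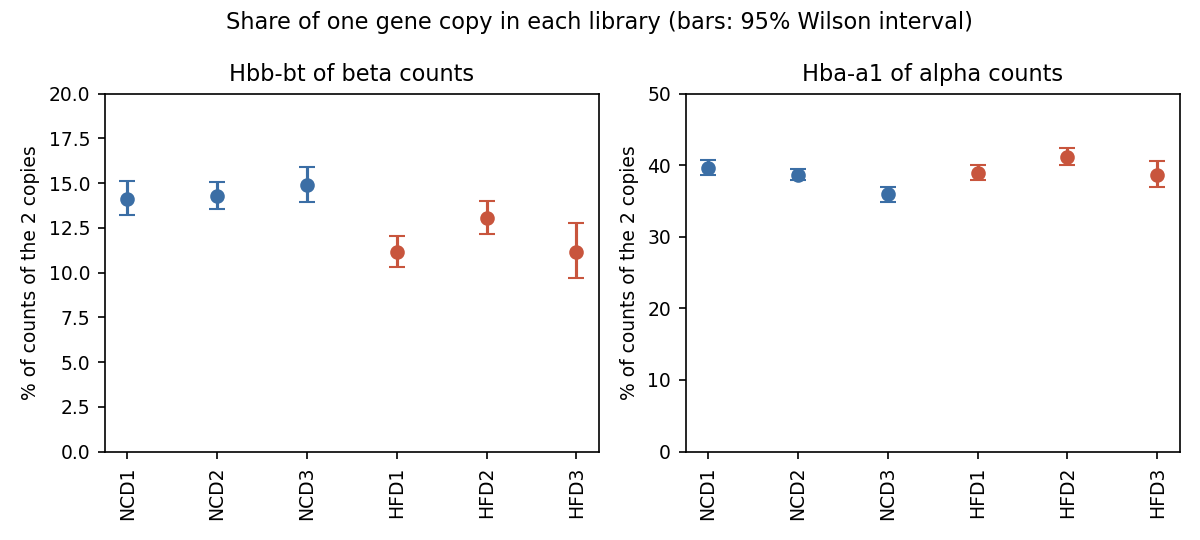
Share of *Hbb-bt* in the beta counts (left) and of *Hba-a1* in the alpha counts (right) in each library, in percent, with 95% Wilson intervals that cover counting error only. The 3 NCD points lie above the 3 HFD points on the left (14.1 to 14.9% against 11.1 to 13.0%), and the diets overlap on the right.

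Of the other globins, *Ngb* and *Cygb* varied less between libraries, by 1.58- and 1.49-fold, while *Hbq1a* and *Mb*, both with few counts, spanned 4.46- and 3.97-fold. The embryonic genes *Hba-x* and *Hbb-bh1* and the related *Hbb-bh2* had 0 counts in every library, which allows up to 0.580 CPM in the smallest library. *Hbb-y* had at most 2 counts and *Hbq1b* at most 1, and *Hbq1a*, a theta globin gene, had 2 to 17 counts. *Ngb*, the oxygen-binding globin of neurons, had 199.7, 187 and 153 CPM in NCD1 to NCD3 and 176, 205 and 129.8 CPM in HFD1 to HFD3 (log2 fold change -0.08 ± 0.22, edgeR, adjusted p = 0.999). *Cygb*, cytoglobin, lay between 43.0 CPM in NCD1 and 64.2 CPM in HFD2 (log2 fold change 0.10 ± 0.21, adjusted p = 0.999). *Mb*, myoglobin, had 5 to 22 counts per library. Of these 9 other globin genes, 3 passed the filter and 0 had a p under 0.05 in either direction.

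Several listed genes made mainly in red cell precursors, named here after their values were seen, were at or near 0. Others were not, since *Alas2* had 19 to 83 counts per library. *Zfpm1* (17 to 52 counts) and *Epor* (10 to 51 counts) of the erythroid factors also passed the filter. *Gata1* and *Klf1*, transcription factors of the red cell lineage, had at most 1 and 3 counts in any library. *Gfi1b*, a repressor in that lineage, and *Hemgn* and *Kel* had none. *Slc4a1*, the anion exchanger of the red cell membrane, had 5 counts in NCD2 and 1 in NCD3, and none elsewhere. *Epb42*, protein 4.2 of the membrane skeleton, had 5 counts in NCD2 and 3 in HFD1, and *Rhag* had at most 2. *Ahsp* was not analysed here.

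Of the 18 red cell membrane genes listed, 8 passed the filter and 0 had a p under 0.05. The most abundant were *Cd47*, a marker of self on many cells (263 to 301 CPM), *Dmtn*, an actin-bundling protein (142 to 285 CPM), and *Slc2a1*, the glucose transporter of red cells and of brain endothelium (94.5 to 157 CPM). Of the 10 erythroid factors, 5 passed the filter and 0 had a p under 0.05. *Ldb1* (14.7 to 43.6 CPM), *Bcl11a* (16.5 to 24.6 CPM) and *Lmo2* (10.9 to 20.9 CPM) led this list, all of which neural or vascular cells also express. Of 17 red cell cytosol and maturation genes with a row, 12 passed the filter and 0 had a p under 0.05. *Prdx2*, a peroxidase abundant in red cells and neurons (247 to 371 CPM), and *Bnip3l*, which removes mitochondria from maturing red cells (165 to 215 CPM), were highest. The diets did not overlap for 1 of the 12, *Slc25a37*, the mitochondrial iron importer mitoferrin-1 (log2 fold change -0.33 ± 0.29, edgeR, adjusted p = 0.999), a share near the 6.48% of all genes tested.

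**Figure D4:**
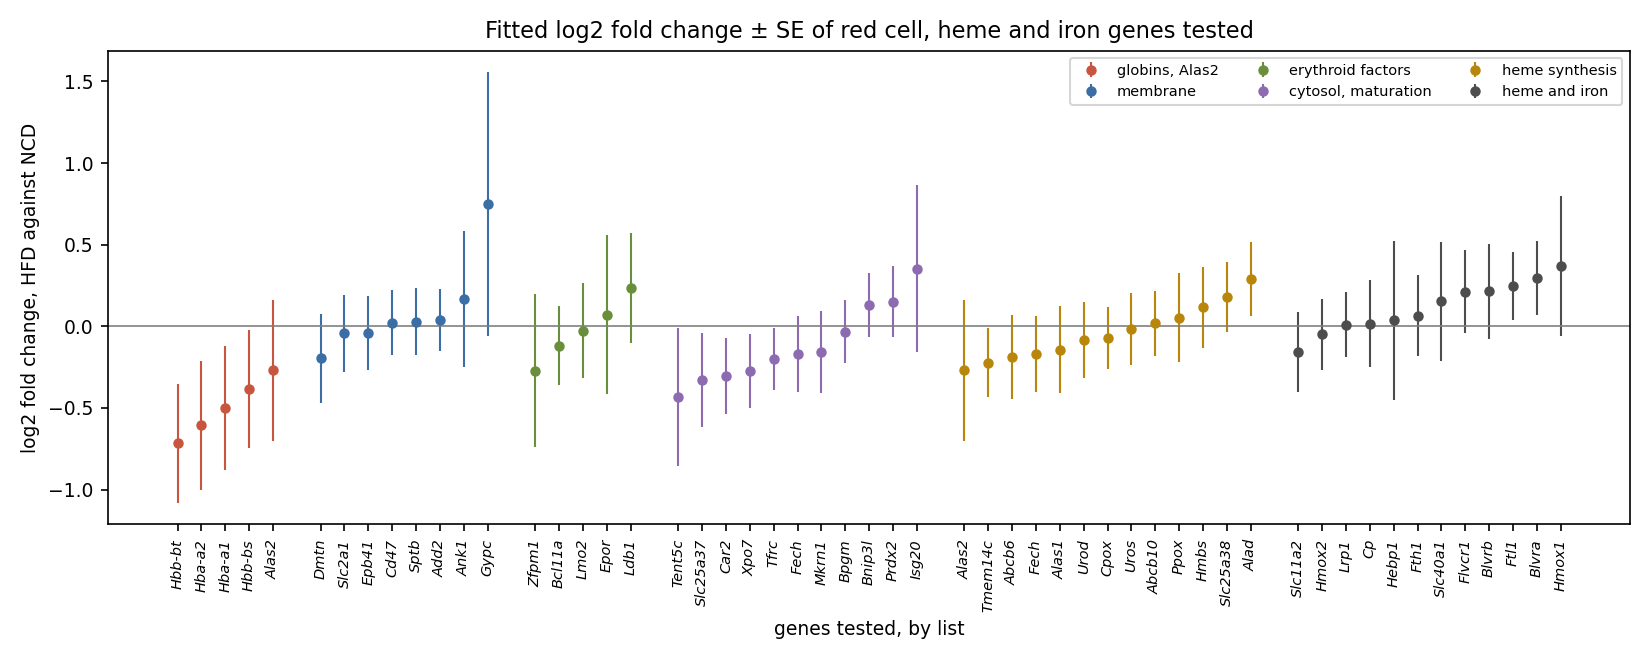
Fitted log2 fold change ± SE (HFD against NCD, edgeR) of tested genes of the red cell, heme and iron lists, ordered within each list. The globins and *Alas2* lie between -0.72 and -0.27, the other lists lie on both sides of 0, and no gene shown had a p under 0.05.

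Heme is made in mitochondria and cytosol and every cell runs the pathway, with *Alas1* as the enzyme of the first step outside red cells. All 13 heme synthesis genes listed were tested, and 0 passed at a p under 0.05 in either direction. Their median log2 fold change was -0.07, and 8 of the 13 lay below 0. *Alas1* (mean 45.3 CPM) had a log2 fold change of -0.14 ± 0.26 (edgeR, adjusted p = 0.999). The most abundant were *Fech*, which inserts iron into heme (55.8 to 96.4 CPM), *Urod* (42.8 to 75.5 CPM) and *Cpox* (41.6 to 51.5 CPM). The summed CPM of the list spanned 1.29-fold over the libraries.

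Genes that bind, break down or store free hemoglobin, heme and iron also showed no called difference. Of 15 such genes with a row, 12 were tested and 0 had a p under 0.05, with 10 of the 12 fitted values above 0 and a median of 0.11. *Fth1* and *Ftl1*, the ferritin chains that store iron, led the list. *Ftl1* had 562, 682 and 641 CPM in NCD1 to NCD3 and 765, 755 and 715 CPM in HFD1 to HFD3. Its HFD values all lay above its NCD values, but the difference was small (log2 fold change 0.24 ± 0.21, edgeR, p = 0.261, exact permutation p = 0.1, the smallest possible). It was the 1 gene of the 12 for which the diets did not overlap, a share near the 6.48% of all genes tested. *Fth1* lay between 1981 CPM in NCD1 and 3091 CPM in HFD2 and overlapped between the diets. *Lrp1*, the receptor for heme bound to hemopexin, lay between 121 and 156 CPM. *Hmox1*, the inducible heme oxygenase, had 15 to 55 counts per library, and its log2 fold change was 0.37 ± 0.43 (edgeR, adjusted p = 0.999). *Hp*, haptoglobin, and *Cd163*, the receptor for its complex with hemoglobin, had at most 6 and 11 counts. *Tf* was not analysed here. Over these lists and the other globins, without the 5 genes, 51 genes were tested, 24 had a fitted value below 0 and the median was 0.016. DESeq2 and limma on FPKM also gave 0 genes of these lists with an unadjusted p under 0.05.

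The summed levels of vascular markers varied less than that of the globins, although single markers of low level varied as widely. The summed CPM of 18 endothelial genes was 578 in NCD1, 617 in NCD2, 542 in NCD3, 604 in HFD1, 645 in HFD2 and 516 in HFD3, a range of 1.25-fold. That of 12 mural cell genes (pericytes and smooth muscle) spanned 1.28-fold, from 263 in NCD3 to 337 in NCD1. The Pearson correlation with the log2 globin sum was 0.32 for the endothelial and -0.10 for the mural list (n = 6, descriptions only). The most abundant genes of the lists were *Slc2a1* and *Rgs5*. *Slc2a1*, *Itm2a* (81.3 to 136 CPM) and *Flt1* (35.3 to 57.5 CPM) led the endothelial list, and *Rgs5* (110.5 to 149 CPM), *Vtn* (53.5 to 88.3 CPM) and *Myl9* (23.0 to 34.6 CPM) the mural list. Between the diets, 3 of 18 endothelial genes had a p under 0.05 before adjustment, namely *Ly6c1* (log2 fold change 0.81), *Ly6a* (0.76) and *Cldn5* (-0.48), and 2 of 11 tested mural genes, *Acta2* (-0.83) and *Tagln* (-1.05), beside 2.30% of all genes tested. None of these passed after adjustment. Over the 6 libraries, *Tagln* spanned 4.42-fold, *Cdh5* 4.27-fold, *Higd1b* 3.72-fold and *Myh11* 3.10-fold, all with at most 16.2 CPM.

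Most markers of other blood cells had few counts. Of 10 platelet genes, 3 passed the filter, and the summed CPM of all 10 was 5.47, 13.1 and 12.2 in NCD1 to NCD3 and 12.4, 9.16 and 25.0 in HFD1 to HFD3. *Itga2b* (33 to 42 counts) was the most abundant on average, and *Gp1bb* had 64 counts in HFD3 against 15 or fewer elsewhere. *Ppbp*, a platelet chemokine, had 29 counts in NCD2 and at most 4 in the others. *Pf4* stood at 2.54 CPM in NCD2 and 2.07 CPM in HFD3, against 0.591 to 1.05 CPM elsewhere. *Gp1ba* had 0 counts in NCD2 and HFD2, and *Gp9* was lowest in NCD2, so the platelet genes did not share an order of the libraries. Of 12 neutrophil genes, 4 had 0 counts in every library, *S100a8* had at most 6 counts, and *Cxcr2* (87 to 234 counts) made up most of the sum, ahead of *Csf3r*, the receptor for the growth factor G-CSF (8 to 34 counts), and *Lcn2* (at most 4 counts). That sum correlated with the globin sum at 0.38 and the platelet sum at 0.15 (n = 6). Of 13 lymphocyte genes, *Ighm* alone passed the filter (4.51 to 11.9 CPM), and the next, *Nkg7* and *Cd79a*, had at most 6 and 5 counts. Of 8 monocyte genes, 2 passed, and *Nr4a1*, also an immediate early gene of neurons, fell in HFD (log2 fold change -2.80, edgeR, adjusted p = 0.000503). The other was *Fn1*, fibronectin, which cells of vessels and meninges also make (14.0 to 27.0 CPM), and *Ccr2* had at most 12 counts. *Alb*, the main plasma protein of the liver, had 4 counts in NCD1 and 0 in the other libraries. The most abundant genes of the 8 listed for the liver and plasma were *Apoa2* and *Apoa1*, with 20 to 61 and 24 to 46 counts. The part of blood cells in the globin differences was not tested.

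The meninges and the choroid plexus are tissues that LCM can carry along. The summed CPM of 9 meningeal genes spanned 4.92-fold, from 406 in HFD2 to 1998 in HFD3, and was led by *Ptgds* (337 to 1739.8 CPM), *Dcn* and *Igf2*. HFD3 was thus the highest library for meningeal genes and the lowest but 1 for globins, and the correlation with the globin sum was -0.38 (n = 6). The 7 choroid plexus genes summed to between 30.8 and 50.7 CPM, led by *Clic6*, *Kl* and *Ttr*. The general neuron list, led by *Snap25*, *Syt1* and *Stmn2*, was steadier and spanned 1.22-fold. The summed ARC neuron markers spanned 1.66-fold, from 2103 CPM in NCD1 to 3500 CPM in HFD3. *Cartpt*, *Pomc* and *Sst* (294 to 662 CPM) led them, and single members varied more, such as *Agrp* (3.21-fold), *Ghrh* (3.02-fold), *Cartpt* (2.72-fold) and *Pomc* (2.42-fold). Of 15 ARC neuron markers, 3 had a p under 0.05 before adjustment (*Cartpt*, *Tac2* and *Gal*, with log2 fold changes of 0.75, 0.60 and 0.70), beside 2.30% of all genes tested, and none passed after it. The Y-linked genes *Ddx3y*, *Eif2s3y* and *Kdm5d* had counts in every library of these males.

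**Figure D5:**
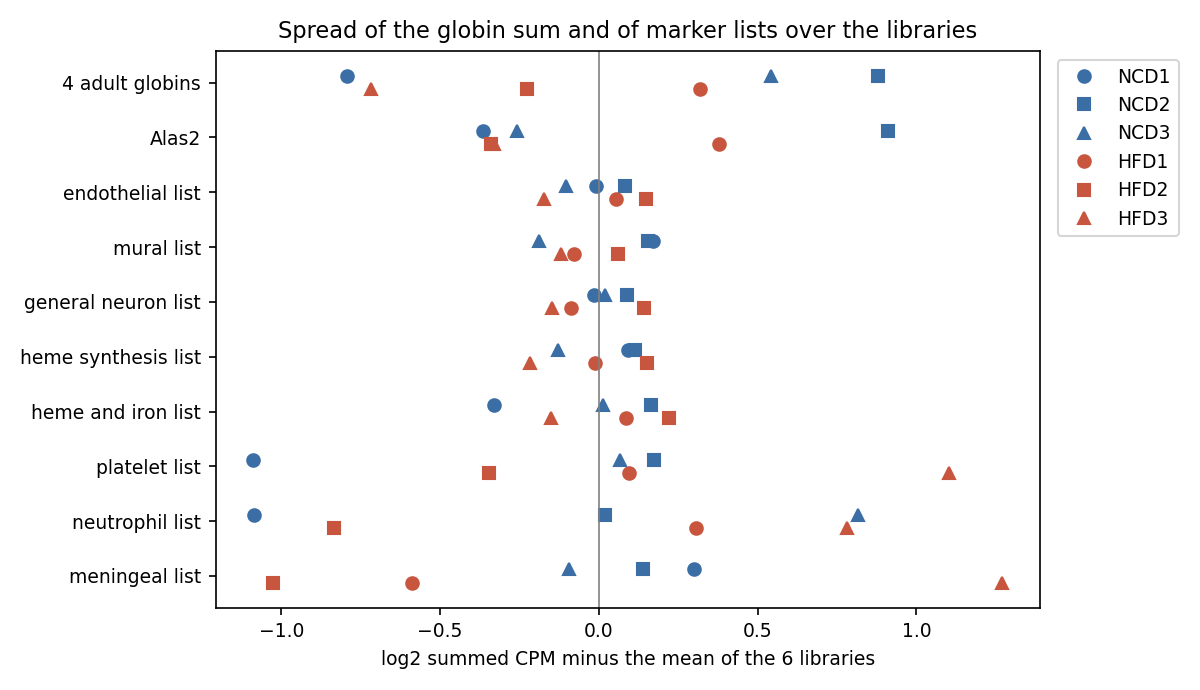
Log2 summed CPM of the 4 adult globins, of *Alas2* and of 8 marker lists in each library, relative to the mean of the 6 libraries (x axis), with NCD in blue and HFD in red. The globins spread over 3.19-fold, the endothelial, mural and general neuron lists over 1.22- to 1.28-fold, and the platelet, neutrophil and meningeal lists over 3.74- to 4.92-fold in other orders of the libraries.

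The genes whose log2 CPM was most like the log2 globin sum over the 6 libraries were *Hmga1* (Pearson r = 0.99), *Pcp4l1* (0.99), *Dbx2* (0.98), *Epb41l1* (0.97), *Snrnp35* (0.97), *Cep170b* (0.97), *Tst* (0.96), *Exosc3* (0.96), *BC024978* (0.96) and *Nutf2-ps1* (0.96). They came from 12001 genes with a mean of at least 5 CPM, of which 47 (0.392%) reached 0.9. The size of their changes was not like that of the globins, since these 10 genes spanned from 1.17-fold (*Epb41l1*) to 1.74-fold (*Tst*) over the libraries, whereas the globin sum spanned 3.19-fold. For *Hmga1*, a chromatin protein, the level was 61.4, 94.0 and 86.0 CPM in NCD1 to NCD3 and 84.7, 68.7 and 63.1 CPM in HFD1 to HFD3. None of the 10 belonged to the red cell, heme or iron lists, and none had a p under 0.05 between the diets in edgeR (adjusted p = 0.999). On the same measure, the genes of those lists ran from -0.87 for *Ppox* to 0.81 for *Tmem14c*, both of heme synthesis, with *Alas2* at 0.76, *Fth1* at 0.74 and *Ngb* at 0.10. Of the 9 list sums compared with the globin sum, that of the heme and iron genes was the highest, at 0.70, and that of heme synthesis stood at 0.15 (n = 6, descriptions only). *Fth1* made up most of the heme and iron sum, with a mean of 2595 CPM beside 3649 CPM for the list. Single genes of that list ran from -0.79 (*Hmox1*) to 0.74 (*Fth1*).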

How the data were processed

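RNA-seq libraries of ARC tissue from 3 NCD and 3 HFD samples were analysed. The authors aligned cleaned NovaSeq reads with HISAT2 and derived values per gene with StringTie and RSEM, and their processing notes name mm10. Versions and strand settings are not given in the sources used here. The deposited table holds read counts, which the authors did not normalize, and FPKM values that the authors scaled to transcript length and mapped reads. The authors' group means, log2 fold changes, p-values and FDR are also in the deposited table and were not used. All per-sample columns were assigned. Titles give C or H, read as NCD and HFD from the headers.

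Symbols came from the reference gene table for 22267 of 22322 identifiers. Counts were filtered (filterByExpr), TMM normalized and tested with edgeR 4.0.16 (glmQLFit, glmQLFTest, diet only, limma 3.58.1, R 4.3.3), with Benjamini-Hochberg adjustment over 14188 genes. SEs are the log2 fold change divided by the root of F. Exact permutation tests were two-sided. Correlations used log2 CPM with a prior count of 2. Alternatives included DESeq2 1.42.0 and limma on log2(FPKM + 1). Sequences and transcripts were read with Biopython 1.88 in Python 3.11.15, and figures drawn with matplotlib 3.10.9. The fits were tested on simulated data. The 5 genes, the 19 marker lists and the tests were chosen with earlier results of these data known. Genes named in the text are the 5 genes, the 3 most abundant of each list, listed red cell, heme and iron genes with a p under 0.05 (there were none), other listed genes past an adjusted p of 0.05, and the 10 genes most like the globin sum. Further listed genes were named after their values were seen. Of the listed genes, 2 are not reported here by name.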

Additional observations from a re-analysis of the deposited data

How the results depend on the processing

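Over the alternatives, the globin genes kept a fitted log2 fold change below 0 in each fit, and no fit called any of the 5 genes at an adjusted p under 0.05. Before adjustment, *Hbb-bt* had a p under 0.05 in 5 of its 17 alternatives, *Hba-a2* in 3, *Hba-a1* and *Hbb-bs* in 1 each and *Alas2* in 0 of 16. *Alas2* changed sign in 1 fit, to 0.26 without NCD2. Leaving out each library in turn gave log2 fold changes from -0.86 to -0.06 for *Hba-a1*, from -0.98 to -0.22 for *Hba-a2*, from -0.74 to -0.14 for *Hbb-bs*, from -1.08 to -0.47 for *Hbb-bt* and from -0.55 to 0.26 for *Alas2*, and from -0.92 to -0.08 for the globin sum. With the copies summed, the values were -0.56 for the alpha genes and -0.43 for the beta genes. Scaling moved the median of all genes by less than 0.1 on the log2 scale. Depth limits *Hbb-y* and *Hbq1b*, with at most 2 counts per library, for which a diet difference was not detectable.

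The number of genes called at an adjusted p under 0.05, 8 as reported, was 19 with DESeq2, 15 without a filter on low counts, 15 with the log2 total count as covariate, 1 with the log2 globin sum as covariate, 5 with limma on log2(FPKM + 1) or log2(FPKM + 0.1) and 1 with limma without a filter. It ranged from 1 to 16 with a library left out (1 without NCD2, HFD1 or HFD2, 4 without HFD3 and 16 without NCD3). At the study's threshold, 270 genes passed as reported, 427 without a filter, 179 at a mean of at least 50 counts, and 195 to 982 with a library left out (982 without NCD3 and 606 without HFD2). The causes were not tested.

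The numbers shared by the diets do not pair the samples by any label, and deviations of samples with the same number correlated at -0.01, 0.11 and 0.37. In the fit with a replicate block, 17 genes passed at an adjusted p under 0.05. There *Hbb-bt* had a log2 fold change of -0.64 (edgeR, adjusted p = 0.995), *Hba-a2* -0.54, *Hba-a1* -0.44, *Hbb-bs* -0.33 and *Alas2* -0.20. Of the 5 genes, *Hbb-bt* alone had an unadjusted p under 0.05 with the block, which it did not have as reported. At the study's threshold, *Hbb-bt* therefore passed with the block, where 376 genes passed in all, but not as reported, where 270 did. It also passed at that threshold with DESeq2, without a filter on low counts, with the log2 total count as covariate and without NCD1. Not every sample correlated best with its own number.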
